A study of Mus musculus and blank sample with 91 samples.

Results

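The fecal microbiota of 5 mice with experimental autoimmune encephalomyelitis (EAE) was compared with that of 6 mice given adjuvant alone at 14 dpi, where dpi counts days from immunization. This is the day of early disease onset in the series. Most differences were set beside those between the same groups at -2 dpi. The members were chosen by their labelled treatment and day, and make up 11 of the 88 samples with counts. EAE mice received 50 µg of a MOG peptide (a fragment of a myelin protein) in Complete Freund's Adjuvant (CFA), and 250 ng of pertussis toxin on the day of immunization and again 2 days later. CFA mice received the same adjuvant without the peptide and, according to the labels, without the toxin. All were female C57BL/6 mice per the labels (C57BL/6J in the study's methods, which give them as 8 weeks old when purchased), and at -2 dpi no mouse had been treated. The difference between EAE and CFA mice therefore holds both the peptide and the toxin, whose parts cannot be told apart. Mice shared cages of 2 to 3 and treatment was assigned by cage, with no cage given in the labels, so cage and treatment cannot be told apart either. Of the 5 EAE mice, numbered 588, 589, 591, 593 and 595, mice 588, 589 and 595 had clinical scores of 1, 3 and 3.5 at 14 dpi, on a scale that rises with paralysis, and mice 591 and 593 scored 0. Their weights were 18.9, 14.5, 19.4, 19.2 and 15.8 g in the order of their numbers, and the 6 CFA mice, numbered 543 to 548, weighed 17.9 to 19.7 g with a score of 0.

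The mouse gut holds a dense community in which lactic acid bacteria, small spore-forming Firmicutes, mucin feeders, plant-fiber fermenters and Bacteroidetes live side by side. Lactobacillus ferments sugars to lactate, Akkermansia lives on the mucus of the gut wall, Ruminococcaceae break down plant fiber, and many Lachnospiraceae ferment it to short-chain fatty acids such as butyrate. Bacteria were counted by sequencing part (V3–V4) of the gene for 16S rRNA, which all bacteria carry, and each distinct read sequence is an amplicon sequence variant (ASV). Values below are relative abundances, the percent of a sample's counts that a taxon holds. They sum to 100% in each mouse, so a taxon can be higher in percent without more cells being present. Families and genera carry the names that the authors gave to their ASVs.

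Total counts ranged from 52713 to 85368 in the CFA mice at 14 dpi and from 74342 to 102194 in 4 of the EAE mice, with 17326 in EAE mouse 589. At -2 dpi they were 54025 to 72482 in CFA and 37156 to 64953 in EAE mice. A floor of 3 counts, taken as the smallest amount a library can show, is 0.00294% to 0.0173% of a sample's counts at 14 dpi. These limits cover counting error only. Mouse 589 stood apart from the other EAE mice: it had the lowest total, 37 ASVs against 107 to 132, a weight of 14.5 g, and no counts of Akkermansia, Prevotella or Roseburia. What the low total and the low weight contributed to its values was not tested. In the labels the EAE mice have other numbers at -2 dpi (550, 551, 553, 555, 556 and 557), and the deposited sample table ties the day 14 mice 588, 589, 591, 593 and 595 to subjects 550, 551, 553, 555 and 557. Changes within EAE mice rest on that table, and subject 556 has no sample at 14 dpi.

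The 2 groups were far apart at 14 dpi and intermixed at -2 dpi. The Bray-Curtis distance between 2 mice, which runs from 0 for the same genera in equal shares to 1 for no genus in common, averaged 0.740 between EAE and CFA mice at 14 dpi, with a range of 0.657 to 0.877. It averaged 0.363 among EAE mice (0.236 to 0.567) and 0.368 among CFA mice (0.156 to 0.519), so every pair across the groups was farther apart than any pair within one. The mean distance between groups exceeded that within groups by 0.374 (two-sided exact permutation test, n = 5 and 6, p = 0.00433, the smallest these group sizes allow). At -2 dpi the distances were 0.346 between groups, 0.356 among EAE and 0.278 among CFA mice, and the excess of 0.0285 lay within the spread (exact permutation test, n = 6 and 6, p = 0.117). Aitchison distance, which gives rare genera more weight, put the groups apart at -2 dpi as well (excess 2.40, exact permutation test, p = 0.0260, against 9.96 and p = 0.00433 at 14 dpi). From its own sample at -2 dpi, each EAE mouse was 0.519 to 0.787 away and each CFA mouse 0.219 to 0.688. The means of 0.636 ± 0.0976 (SD, n = 5) and 0.435 ± 0.190 (SD, n = 6) did not pass the test (exact permutation test, p = 0.0649).

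**Figure D1:**
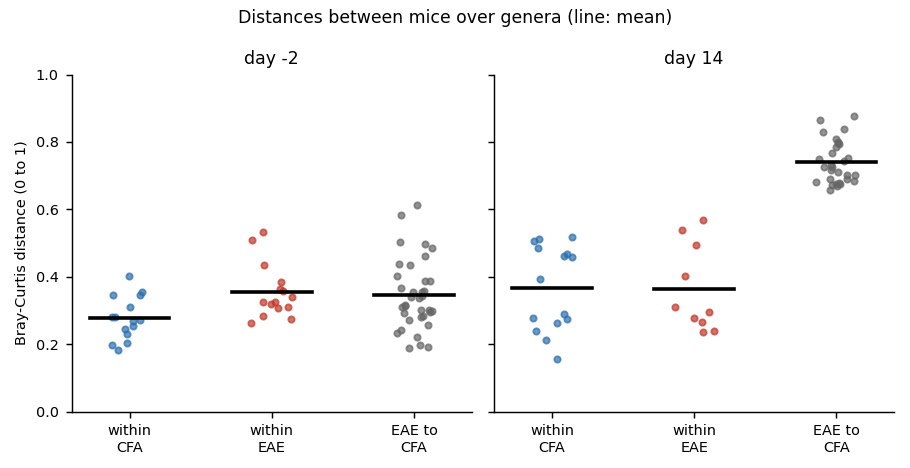
Bray-Curtis distances over genera (y axis, 0 to 1) for every pair of CFA mice, every pair of EAE mice and every pair of an EAE with a CFA mouse, at -2 dpi (left) and 14 dpi (right), with black lines at the means. At 14 dpi all pairs across the groups lie between 0.657 and 0.877, above the highest pair within a group, 0.567, and at -2 dpi the 3 kinds of pair overlap.

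Much of what the EAE mice carried at 14 dpi was not found in any CFA mouse. When ASVs that differ only inside the primers were merged, 196 sequences had counts in the 11 mice, of which 58 were found only in EAE mice, 83 only in CFA mice and 55 in both groups. Sequences that no CFA mouse had made up 39.4% to 57.2% of the counts of each EAE mouse, with a median of 45.4%. Sequences that no EAE mouse had made up 12.9% to 33.8% of the counts of each CFA mouse, with a median of 17.4%. At -2 dpi the medians were 9.69% and 4.80%, with 57 sequences in both groups, 47 only in EAE and 55 only in CFA mice.

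Genera were tested in 2 ways, by the quasi-likelihood test of edgeR on counts and by an exact permutation test on percents, each adjusted over all genera tested with a threshold of 0.05. In edgeR, 9 of 65 genera differed between EAE and CFA mice at 14 dpi (13.8%), 4 of them higher and 5 lower in EAE mice, against 2 at -2 dpi (3.08%), and 6 (9.23%) differed in the change since -2 dpi. By permutation of percents, 12 of 63 genera differed at 14 dpi (19%), 5 higher and 7 lower, against 0 of 55 at -2 dpi (0%), where 5 had an unadjusted p under 0.05 and edgeR called 2. In 11 of the 63 genera the percents of EAE and CFA mice did not overlap (17.5%), and each of these reached the smallest p possible, 0.00433, with an adjusted p of 0.0248. For the change in percent per mouse since -2 dpi, 0 of 67 genera passed (12 had an unadjusted p under 0.05), with a lowest adjusted p of 0.0967, and edgeR called 6 of 65. Leaving out EAE mouse 588, 589, 591 or 593 reduced the 12 genera of 14 dpi to 0, and leaving out EAE mouse 595 left 12. With 4 mice against 6 no p can be under 0.00952. In contrast, edgeR called 7 to 10 genera with any mouse left out. A limit of edgeR bears on its calls. Among the genera tested, 8 had counts in only 1 of the 11 mice, and all 8 had an unadjusted p under 0.05. A call of a genus that is 0 in a whole group is therefore read here only beside the number of mice with counts. Its fitted fold change is for the same reason left out where the genera are described. It appears only near the end, for the 6 genera called for the change, as a direction and not a size.

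**Figure D2:**
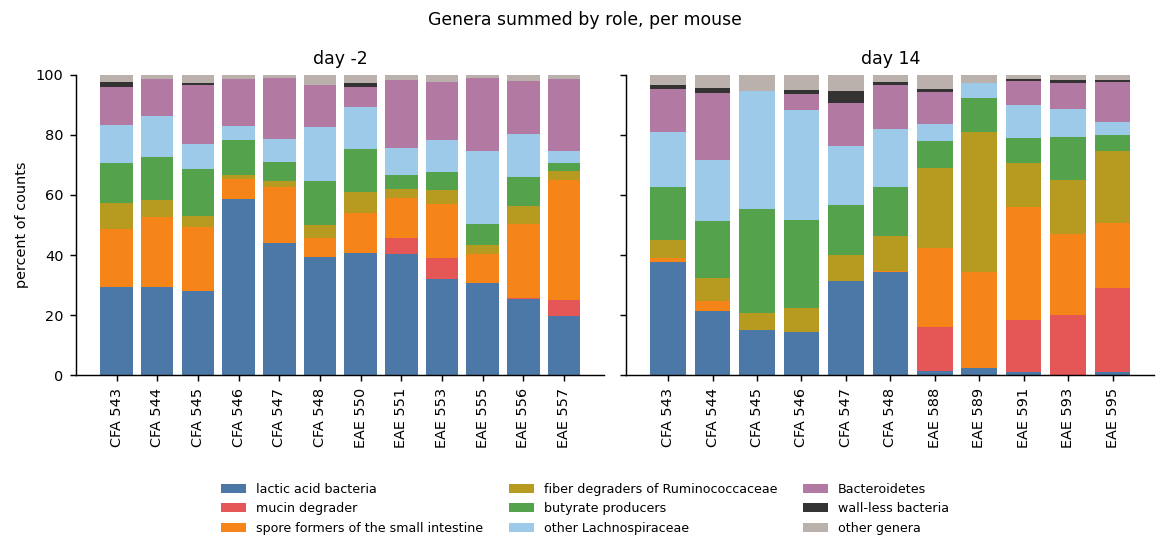
Relative abundance (y axis, percent of counts) of genera summed by role, as a stacked bar per mouse at -2 dpi (left) and 14 dpi (right), CFA mice first. At 14 dpi the lactic acid bacteria fill 14.5% to 37.6% of each CFA bar and at most 2.34% of each EAE bar, and the spore formers of the small intestine fill 21.6% to 37.5% of the EAE bars and at most 3.30% of the CFA bars.

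Lactobacillus, the main lactic acid producer of the mouse gut, had the largest difference in mean percent among the 63 genera, 22.5-fold lower in EAE than in CFA mice. At 14 dpi it held 1.45%, 2.34%, 1.07%, 0.258% and 0.602% of the counts in EAE mice 588, 589, 591, 593 and 595. In CFA mice 543 to 548 it held 37.6%, 21.5%, 14.9%, 14.5%, 31.5% and 34.4%. Every CFA mouse was above every EAE mouse, and the 2 EAE mice without clinical signs, 591 and 593, were as low as the 3 with signs. The means were 1.14% ± 0.809 (SD, n = 5) and 25.7% ± 10.1 (SD, n = 6), a log2 difference of -4.67 (edgeR, adjusted p = 0.00195; exact permutation test of percents, p = 0.00433, adjusted p = 0.0248). At -2 dpi the groups overlapped, with 19.7% to 40.8% in EAE and 28.1% to 58.7% in CFA mice (exact permutation test, p = 0.301). The level at 14 dpi was below that at -2 dpi in 5 of 5 EAE and 5 of 6 CFA mice. The mean changes were -31.5 ± 8.05 (SD, n = 5) and -12.4 ± 17.3 percentage points (SD, n = 6). The difference between the groups in that change did not pass (exact permutation test, p = 0.0563, adjusted p = 0.272, and in edgeR adjusted p = 0.0551), although edgeR called it at the family level (adjusted p = 0.0209) and with subjects as a replicate block (adjusted p = 0.0386). Nearly all of it was 1 sequence named Lactobacillus johnsonii, which held a mean of 25.7% in CFA and 1.14% in EAE mice. The other lactic acid genus, Enterococcus, had counts in EAE mouse 595 only, at 0.547%.

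Turicibacter, Romboutsia and Clostridium_sensu_stricto_1, spore-forming Firmicutes that colonize the small intestine, were all higher in EAE than in CFA mice at 14 dpi. In each of them the CFA mice had less at 14 dpi than at -2 dpi, in 6 of 6 mice. Summed, they held 28.8% ± 6.12 (SD, n = 5) in EAE and 0.851% ± 1.34 (SD, n = 6) in CFA mice at 14 dpi, against 19.7% ± 11.1 and 15.9% ± 7.44 (SD, n = 6 each) at -2 dpi. The percents of all 3 genera passed the permutation test at 14 dpi, edgeR called Romboutsia and Clostridium_sensu_stricto_1, and neither test called any of the 3 at -2 dpi.

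Turicibacter held 15.6%, 17.1%, 25.6%, 12.7% and 14.2% of the counts in EAE mice 588, 589, 591, 593 and 595. In CFA mice 543 to 548 it held 1.53%, 3.30%, 0%, 0%, 0% and 0.247%. The groups did not overlap (exact permutation test, p = 0.00433, adjusted p = 0.0248), and edgeR, with 3 CFA mice at 0, did not call the difference (log2 difference 4.05, adjusted p = 0.0704). Before immunization the groups overlapped, with a mean of 17.8% ± 10.1 in EAE and 11.4% ± 5.57 in CFA mice (SD, n = 6 each; exact permutation test, p = 0.199). The mean change since then was -10.6 ± 4.98 percentage points in the CFA mice (SD, n = 6) and 0.0901 ± 12.3 in the EAE mice (SD, n = 5), a difference within the spread (exact permutation test, p = 0.0823, adjusted p = 0.324). With subjects as a replicate block edgeR called it (adjusted p = 0.0386). Nearly all counts were 1 sequence named Turicibacter sanguinis.

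Romboutsia, of the family Peptostreptococcaceae, had counts in all 5 EAE mice, at 6.35%, 10.5%, 2.12%, 4.66% and 3.62%, and in none of the 6 CFA mice. The EAE mean of 5.44% ± 3.20 (SD, n = 5) was at least 1223-fold above the floor of 3 counts per CFA library (edgeR, adjusted p = 0.00195; exact permutation test, p = 0.00433, adjusted p = 0.0248). Before immunization, at -2 dpi, the order was the other way: all 6 CFA mice had Romboutsia, at 0.565% to 4.68%, and 2 of 6 EAE mice had it, at 1.90% and 1.27% (exact permutation test, p = 0.0216, adjusted p = 0.397). Its level was higher at 14 than at -2 dpi in 5 of 5 EAE mice and lower in 6 of 6 CFA mice, with mean changes of 4.81 ± 3.36 (SD, n = 5) and -2.85 ± 1.70 percentage points (SD, n = 6). This difference in change was called by edgeR (adjusted p = 0.00269). In contrast, the permutation test gave the smallest p possible and did not pass after adjustment (p = 0.00433, adjusted p = 0.0967).

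Clostridium_sensu_stricto_1, here almost wholly a sequence named Clostridium celatum/disporicum, followed the same course from similar levels. EAE mice held 4.28%, 4.61%, 9.79%, 9.32% and 3.69% at 14 dpi, and of the CFA mice only 543 had counts, at 0.0364%. The means were 6.34% ± 2.96 (SD, n = 5) and 0.00607% ± 0.0149 (SD, n = 6, and in edgeR adjusted p = 0.00923; exact permutation test, p = 0.00433, adjusted p = 0.0248). Before immunization, at -2 dpi, every mouse of both groups had it, with means of 1.41% ± 1.07 and 1.59% ± 0.906 (SD, n = 6 each; exact permutation test, p = 0.751). The level was higher at 14 than at -2 dpi in 5 of 5 EAE and lower in 6 of 6 CFA mice (edgeR for the difference in change, adjusted p = 0.0300; exact permutation test, p = 0.00433, adjusted p = 0.0967).

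**Figure D3:**
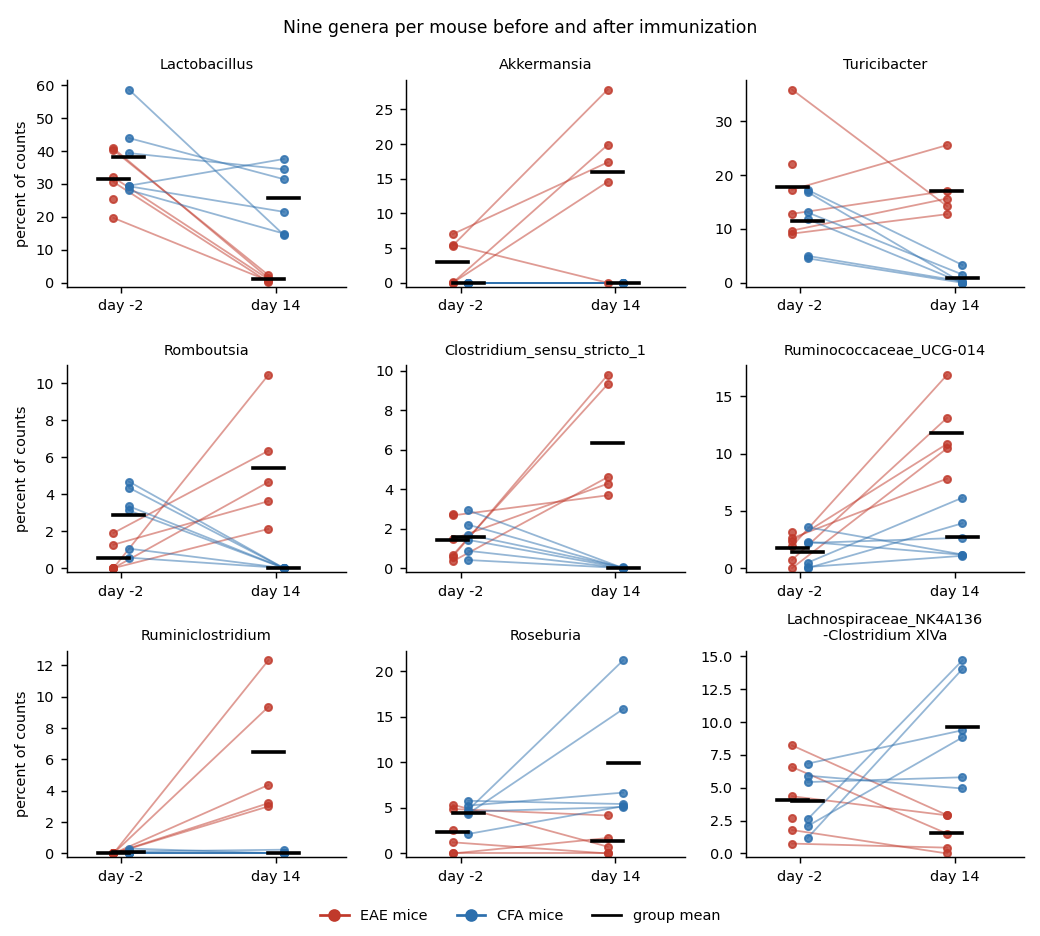
Relative abundance (y axes, percent of counts, a scale per panel) of 9 genera in each EAE mouse (red) and CFA mouse (blue) at -2 and 14 dpi, with a line joining the samples of a mouse (EAE subject 556 has none) and black bars at the group means. Lactobacillus ends at 0.258% to 2.34% in the EAE mice, Romboutsia and Clostridium_sensu_stricto_1 go up in 5 of 5 EAE mice and down in 6 of 6 CFA mice, and Ruminiclostridium appears in EAE mice that had none at -2 dpi.

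Akkermansia, the mucin degrader, was found in EAE mice only, and it was so before immunization. At 14 dpi it held 14.6%, 0%, 17.4%, 19.9% and 27.8% of the counts in EAE mice 588, 589, 591, 593 and 595, and 0% in all 6 CFA mice, whose floors of 3 counts lie between 0.00351% and 0.00569%. In 4 EAE mice it was the first or the second most abundant genus beside Turicibacter, and in mouse 589 it was not detected, which at 17326 counts allows a share of up to 0.0173%. The EAE mean of 15.9% ± 10.2 (SD, n = 5) was at least 3583-fold above the CFA floor (edgeR, adjusted p = 0.000138; exact permutation test, p = 0.0303, adjusted p = 0.100). Before immunization, at -2 dpi, EAE mice 550, 551, 553, 555, 556 and 557 held 0%, 5.51%, 7.01%, 0%, 0.122% and 5.36%, and all 6 CFA mice held 0%. This baseline difference was called by edgeR too (adjusted p = 0.00123). For the change since then edgeR cannot decide, because it gave no call to taxa at 0 in 1 group on both days, whatever their course. The change in percent per mouse did not pass after adjustment (exact permutation test, p = 0.0303, adjusted p = 0.203). The level was higher at 14 than at -2 dpi in 4 of 5 EAE mice, and mouse 589 went from 5.51% to 0%.

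Peptococcus-rc4-4, a sequence named Peptococcus niger, had the same baseline pattern at a low level. It had counts in 3 of 5 EAE mice at 14 dpi (0.120% to 0.427%), in 3 of 6 EAE mice at -2 dpi (0.620% to 0.945%) and in no CFA mouse on either day. It was called by edgeR at both days (adjusted p = 0.0114 and 0.0332), and the exact permutation test gave p = 0.121 at 14 dpi. With no counts in CFA mice on either day, the edgeR test of the change cannot decide here either.

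The fiber degraders of the Ruminococcaceae held 25.9% ± 12.5 (SD, n = 5) of the counts in EAE and 7.82% ± 2.16 (SD, n = 6) in CFA mice at 14 dpi, with 14.6% in the lowest EAE and 11.6% in the highest CFA mouse. At -2 dpi the sums were alike, 4.47% ± 1.83 and 4.29% ± 2.57 (SD, n = 6 each). Of the 16 genera of this group with counts at 14 dpi, 7 had a higher and 9 a lower mean in EAE mice. The permutation test passed 3 of 16 and edgeR called 1 of 16, beside 12 of 63 (19%) and 9 of 65 (13.8%) over all genera. Of those passing the permutation test, Ruminiclostridium and Ruminococcaceae_UCG-014 were higher and Intestinimonas/Ruminiclostridium_9 was lower in EAE mice. The genus called by edgeR was lower in EAE mice.

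Ruminiclostridium, a genus of cellulose and fiber fermenters, was present in all 5 EAE mice at 14 dpi, at 9.34%, 12.3%, 3.21%, 3.00% and 4.37%. Among the CFA mice it had counts in mouse 545 only, at 0.240%. At -2 dpi it was at 0% in all 6 EAE mice and present in 2 CFA mice, at 0.312% and 0.125%, so the genus was gained by 5 of 5 EAE mice between the days. The percents did not overlap at 14 dpi (by exact permutation p = 0.00433, adjusted p = 0.0248), and edgeR called the change since -2 dpi (adjusted p = 0.0106) but not the difference at 14 dpi (adjusted p = 0.0688). With subjects as a replicate block the call of the change was lost (adjusted p = 0.0781). A single sequence made up most of it: it held 8.66%, 12.3%, 3.21%, 2.55% and 4.37% in the EAE mice and had no counts in any CFA mouse at 14 dpi or in any of the 12 mice at -2 dpi.

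Ruminococcaceae_UCG-014, an uncultured group of this family, held 10.9%, 16.9%, 7.82%, 10.5% and 13.1% in the EAE mice and 1.19%, 2.65%, 1.16%, 1.08%, 3.92% and 6.15% in the CFA mice at 14 dpi. All EAE mice were above all CFA mice, with means of 11.8% ± 3.39 (SD, n = 5) and 2.69% ± 2.03 (SD, n = 6; exact permutation test, p = 0.00433, adjusted p = 0.0248), a 4.40-fold ratio that edgeR did not call (adjusted p = 0.442). Before immunization the means were 1.79% ± 1.20 and 1.44% ± 1.46 (SD, n = 6 each; exact permutation test, p = 0.667). Many sequences behind the name were found in 1 group only, as over all genera. At 14 dpi 17 were found only in EAE mice, 7 only in CFA mice and 3 in both, beside 58, 83 and 55 over all genera. Those without counts in CFA mice made up 64.0% to 98.6% of the genus in each EAE mouse, beside 39.4% to 57.2% over all genera. At -2 dpi 2 were found only in EAE mice, 10 only in CFA mice and 3 in both, beside 47, 55 and 57 over all genera. Those without counts in EAE mice then made up a median of 100% of the genus in the CFA mice that had it. Those without counts in CFA mice made up a median of 19.6% in the EAE mice that had it. The leading one held 3.01%, 6.29%, 1.11%, 5.18% and 11.8% in the EAE mice and had no counts in any CFA mouse at 14 dpi or in any mouse at -2 dpi.

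Ruminococcus, whose species degrade resistant starch and cellulose, held 2.39% to 14.5% in EAE and 0% to 3.57% in CFA mice and did not pass (exact permutation test, p = 0.0649, adjusted p = 0.205). Mouse 589 had the 14.5%, and the other EAE mice had 2.39% to 3.80%. Ruminococcaceae_UCG-013, another uncultured group, went the other way. It was at 0% in all 5 EAE mice and had counts in 5 of 6 CFA mice, up to 1.52% (edgeR, adjusted p = 0.0114; exact permutation test, p = 0.0260, adjusted p = 0.0909). Before immunization, at -2 dpi, 5 of 6 EAE and 4 of 6 CFA mice had it, and edgeR called the change (adjusted p = 0.0300). That call was lost without EAE mouse 588, 589, 591 or 595 (adjusted p = 0.0507 to 0.0668) and with subjects as a replicate block (adjusted p = 0.0620). Intestinimonas/Ruminiclostridium_9, named here after its values were seen, was the remaining genus without overlap, with at most 0.106% in EAE and at least 0.115% in CFA mice. At -2 dpi it had counts in EAE mouse 557 (0.111%) and in CFA mice 543 and 544 (0.228% and 0.122%).

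The butyrate producers are a group set by genus name, and no product was measured. They held 9.67% ± 3.31 (SD, n = 5) in EAE and 22.2% ± 7.80 (SD, n = 6) in CFA mice at 14 dpi, against 7.40% ± 4.02 and 12.6% ± 3.36 (SD, n = 6 each) at -2 dpi. The EAE mean was thus the lower one on both days. Of 9 genera, 7 had a lower and 2 a higher mean in EAE mice at 14 dpi, beside 42 of 63 with a lower mean over all genera. The test in edgeR called 0, and 1, Butyricicoccus, with counts in CFA mouse 547 only, had an unadjusted p under 0.05. Roseburia was the 1 genus of the 9 to pass the permutation test. Intestinimonas/Ruminiclostridium_9, also meant for this list, was counted with the fiber degraders of the Ruminococcaceae instead. It passed the permutation test as well, lower in EAE mice.

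Roseburia, a butyrate producer of the Lachnospiraceae, held 0.744%, 0%, 1.69%, 4.16% and 0% in EAE mice 588, 589, 591, 593 and 595 at 14 dpi. In CFA mice 543 to 548 it held 6.67%, 5.09%, 21.2%, 15.8%, 5.18% and 5.42%. All CFA mice were above all EAE mice, and the means of 1.32% ± 1.74 (SD, n = 5) and 9.89% ± 6.90 (SD, n = 6) put EAE mice 7.49-fold lower (exact permutation test, p = 0.00433, adjusted p = 0.0248, and in edgeR adjusted p = 0.528). Before immunization they were 2.34% ± 2.36 and 4.48% ± 1.25 (SD, n = 6 each; exact permutation test, p = 0.0952). The change since then was -0.970 ± 2.31 percentage points in EAE (SD, n = 5) and 5.41 ± 6.87 in CFA mice (SD, n = 6), with a higher level in 1 of 5 EAE and 5 of 6 CFA mice (exact permutation test, p = 0.0390, adjusted p = 0.218).

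Anaerostipes, which turns lactate into butyrate, had means of 1.91% ± 2.61 (SD, n = 5) in EAE and 4.79% ± 2.66 (SD, n = 6) in CFA mice, which did not pass at 14 dpi (by exact permutation p = 0.0996, adjusted p = 0.261). It was already apart before immunization, with counts in 1 of 6 EAE and 6 of 6 CFA mice and means of 0.653% ± 1.60 and 4.27% ± 1.34 (SD, n = 6 each; exact permutation test, p = 0.00649, adjusted p = 0.298). Eubacterium, with Coprococcus 1 of the 2 genera of the butyrate group with a higher mean in EAE mice, had 1.67% to 4.95% in EAE and 0.272% to 2.29% in CFA mice at 14 dpi (by exact permutation p = 0.0173, adjusted p = 0.0727). Its means at -2 dpi stood in the same order, 0.764% ± 0.479 and 0.152% ± 0.249 (SD, n = 6 each; exact permutation test, p = 0.0108, adjusted p = 0.298). The leading Eubacterium sequence of the EAE mice, named Eubacterium coprostanoligenes after a species that reduces cholesterol, held 1.67% to 4.95% in all 5 of them and had no counts in the 6 CFA mice (edgeR over sequences, adjusted p = 0.0272). At -2 dpi this sequence had counts in 1 of 6 EAE mice, at 0.579%, and in no CFA mouse.

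The other Lachnospiraceae held 7.04% ± 2.88 (SD, n = 5) in EAE and 25.6% ± 9.54 (SD, n = 6) in CFA mice, without overlap (4.22% to 10.8% against 18.4% to 39.2%). Before immunization they held 12.7% ± 6.90 and 10.8% ± 4.89 (SD, n = 6 each). Their direction was nearly uniform. Of 16 genera with counts at 14 dpi, 15 had a lower mean in EAE mice, with a median difference of -0.633 percentage points, beside 42 of 63 genera and a median of -0.0708 over all genera. By test, 3 of the 16 passed the permutation test and edgeR called another 2, all lower in EAE mice, shares close to the 19% and 13.8% over all genera.

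Lachnospiraceae_NK4A136-Clostridium XlVa, a group of plant-fiber fermenters, was the most abundant of them. It held 1.51%, 0%, 2.90%, 2.92% and 0.442% in the EAE mice and 4.94%, 9.37%, 14.7%, 14.0%, 8.83% and 5.80% in the CFA mice at 14 dpi. The means of 1.56% ± 1.35 (SD, n = 5) and 9.61% ± 4.06 (SD, n = 6) differed 6.18-fold (exact permutation test, p = 0.00433, adjusted p = 0.0248, and in edgeR adjusted p = 0.149). At -2 dpi they were nearly equal, 4.06% ± 2.89 and 4.01% ± 2.34 (SD, n = 6 each; exact permutation test, p = 0.978). Both groups moved away from that level, with a lower value at 14 dpi in 5 of 5 EAE mice and a higher one in 5 of 6 CFA mice (exact permutation test of the change, p = 0.00866, adjusted p = 0.116).

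Lachnospira, known for fermenting pectin, was present in all 6 CFA mice at 0.696% to 1.75% and in EAE mouse 591 alone at 0.0832% (exact permutation test, p = 0.00433, adjusted p = 0.0248, and in edgeR adjusted p = 0.114). At -2 dpi 4 of 6 EAE and 3 of 6 CFA mice had it, with means of 0.561% ± 0.653 and 0.505% ± 0.680 (SD, n = 6 each). Hungatella had means of 0.217% ± 0.305 (SD, n = 5) in EAE and 1.44% ± 0.590 (SD, n = 6) in CFA mice (exact permutation test, p = 0.00866, adjusted p = 0.0455). It did not pass without any 1 mouse other than EAE 595 or CFA 548 (adjusted p = 0.0635 to 0.0908). Before immunization Hungatella was likewise more frequent in CFA mice. It then had counts in EAE mouse 555 alone, at 1.22%, and in CFA mice 543, 545, 547 and 548, at 0.730%, 1.73%, 1.03% and 3.19%. Stomatobaculum was at 0% in all 5 EAE mice and had counts in 5 of 6 CFA mice, at 0.593% to 3.35%, at least 296-fold above the EAE floor (edgeR, adjusted p = 0.00889; exact permutation test, p = 0.0260, adjusted p = 0.0909). Before immunization it was likewise more frequent in CFA mice, with counts in 5 of 6 against 1 of 6 EAE mice (exact permutation test, p = 0.0411, adjusted p = 0.452). Anaerotignum-Clostridium XlVb was also at 0% in all EAE mice and at 0.142% to 1.78% in 5 CFA mice (edgeR, adjusted p = 0.0411), a call that was lost when any EAE mouse was left out (adjusted p = 0.0753 to 0.0928). Before immunization it had counts in 2 of 6 EAE and 3 of 6 CFA mice, at up to 0.283% and 0.266%. Dorea, a common Lachnospiraceae that yields acetate and hydrogen, had equal means of 1.44% ± 1.10 (SD, n = 5) and 1.45% ± 1.07 (SD, n = 6; exact permutation test, p = 0.978).

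Among the Bacteroidetes no difference passed. Prevotella, which degrades plant polysaccharides, held 8.93%, 0%, 6.64%, 3.91% and 11.2% in the EAE mice and 14.3%, 22.2%, 0%, 2.19%, 10.0% and 14.6% in the CFA mice, with complete overlap (exact permutation test, p = 0.316). Barnesiella had means of 1.98% ± 1.76 (SD, n = 5) and 1.26% ± 1.98 (SD, n = 6; exact permutation test, p = 0.524). Its counts lay wholly in sequences whose other primer variants were named Prevotella or Muribaculum, so Barnesiella and Prevotella are not separate bacteria here. Summed with Muribaculum, which had counts in 2 EAE mice at -2 dpi alone, Prevotella and Barnesiella held 8.11% ± 4.97 (SD, n = 5) and 11.8% ± 7.85 (SD, n = 6), against 19.0% ± 6.62 and 15.8% ± 3.49 (SD, n = 6 each) at -2 dpi. The wall-less Anaeroplasma had means of 0.623% ± 0.369 (SD, n = 5) and 1.51% ± 1.27 (SD, n = 6; exact permutation test, p = 0.143). Clostridiales_vadinBB60_NA, an uncultured lineage, was at 0% in all 5 EAE mice and at 0.0472% to 1.40% in all 6 CFA mice, at least 75.0-fold above the EAE floor (exact permutation test, p = 0.00433, adjusted p = 0.0248). The edgeR call of it (adjusted p = 0.0417) was lost without CFA mouse 544 or any EAE mouse (adjusted p = 0.0563 to 0.0928). Before immunization 2 of 6 EAE and 2 of 6 CFA mice had this lineage, at up to 0.0939% and 0.402%.

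**Figure D4:**
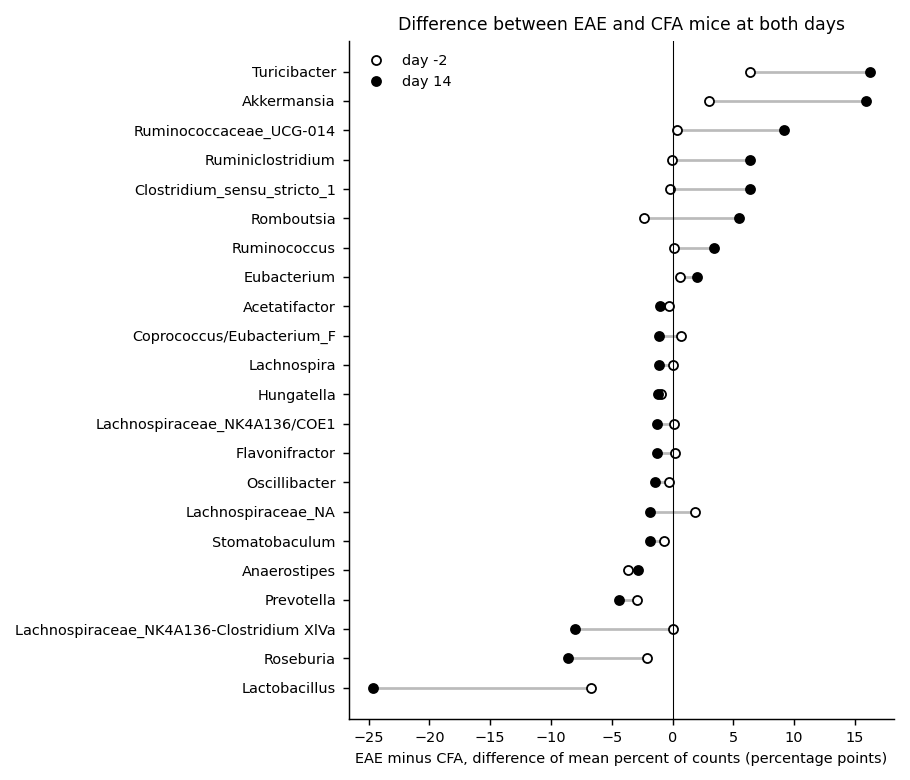
Difference in mean relative abundance between EAE and CFA mice (x axis, percentage points, EAE minus CFA) for named genera with a difference of at least 1 percentage point at 14 dpi. Filled points stand for 14 dpi and open points for -2 dpi. Lactobacillus lies farthest to the left at 14 dpi and Turicibacter and Akkermansia farthest to the right, and Romboutsia lies on opposite sides of 0 on the 2 days.

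Families showed the same split within the Firmicutes at a coarser level. Lachnospiraceae held 12.0%, 11.3%, 15.8%, 18.4% and 4.94% in the EAE mice and 33.5%, 36.3%, 68.1%, 59.8%, 31.9% and 33.2% in the CFA mice at 14 dpi. The means were 12.5% ± 5.12 and 43.8% ± 15.9 (SD, n = 5 and 6, edgeR, log2 difference -1.71, adjusted p = 0.0330; exact permutation test, adjusted p = 0.0136). Ruminococcaceae went the other way, with 27.1% ± 11.8 (SD, n = 5) in EAE and 10.8% ± 2.46 (SD, n = 6) in CFA mice (edgeR, log2 difference 1.32, adjusted p = 0.0259; exact permutation test, adjusted p = 0.0136). At -2 dpi neither family was apart, with 17.5% ± 8.82 and 21.7% ± 6.48 for Lachnospiraceae and 6.30% ± 2.71 and 5.87% ± 2.99 for Ruminococcaceae (SD, n = 6 each). Erysipelotrichaceae, the family of Turicibacter, and Clostridiaceae were higher in EAE mice, at 17.7% ± 5.15 against 1.16% ± 1.43 and 6.34% ± 2.96 against 0.0766% ± 0.123 (SD, n = 5 and 6, and in edgeR adjusted p = 0.0301 and 0.0222).

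In edgeR 13 of 23 families differed at 14 dpi (56.5%), 9 higher and 4 lower in EAE mice, 5 of them with counts in both groups and 3 resting on 1 mouse each. At -2 dpi 2 differed (8.7%), Verrucomicrobiaceae, the family of Akkermansia, and Peptococcaceae, and 3 differed in the change (13%), Peptostreptococcaceae, Lactobacillaceae and RF39_UBA660. By permutation 8 of 22 families differed at 14 dpi (36.4%), against 0 of 19 at -2 dpi (0%, with 2 at an unadjusted p under 0.05). In the change 3 of 24 differed (12.5%), with Clostridiaceae and Peptostreptococcaceae higher and Lachnospiraceae lower in EAE mice, each with an adjusted p of 0.0346. In 10 of 11 cases none of these 3 remained when 1 mouse was left out. Because the percents sum to 100%, they were also taken over the counts outside Lactobacillaceae, the family with the largest edgeR difference among those with counts in all 11 mice. On that base 5 of the families passed at 14 dpi, and Ruminococcaceae (adjusted p = 0.0779) and Eubacteriaceae (adjusted p = 0.101) did not (exact permutation test).

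Alpha diversity, the number and evenness of ASVs within a mouse, did not differ past adjustment. Inverse Simpson, which grows with evenness, was 69.9, 30.0, 53.1, 58.1 and 41.6 in the EAE mice and 85.0, 47.6, 68.8, 108, 96.6 and 77.9 in the CFA mice at 14 dpi. The means were 50.5 ± 15.4 and 80.7 ± 21.4 (SD, n = 5 and 6, exact permutation test, p = 0.0346, adjusted p = 0.260 over 12 comparisons). Shannon diversity was 4.19 ± 0.413 and 4.54 ± 0.239 (SD, n = 5 and 6; exact permutation test, p = 0.0952, adjusted p = 0.381). The number of ASVs was 132, 37, 109, 115 and 107 in EAE and 132, 88, 100, 151, 140 and 112 in CFA mice (exact permutation test, p = 0.342). Without EAE mouse 589 the difference in means went from -20.5 to -4.75 ASVs and that in Shannon diversity from -0.355 to -0.181. Before immunization the same measures gave p from 0.149 to 0.271 (exact permutation test). With ASVs that differ only inside the primers merged, inverse Simpson at 14 dpi was 10.3 ± 2.36 in EAE and 11.1 ± 6.52 in CFA mice (SD, n = 5 and 6; exact permutation test, p = 0.874). What the primer variants contributed to the lower value in EAE mice was not tested. The number of merged sequences was 48, 20, 50, 52 and 44 in EAE and 64, 43, 49, 71, 59 and 53 in CFA mice (exact permutation test, p = 0.0909, adjusted p = 1.00).

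**Figure D5:**
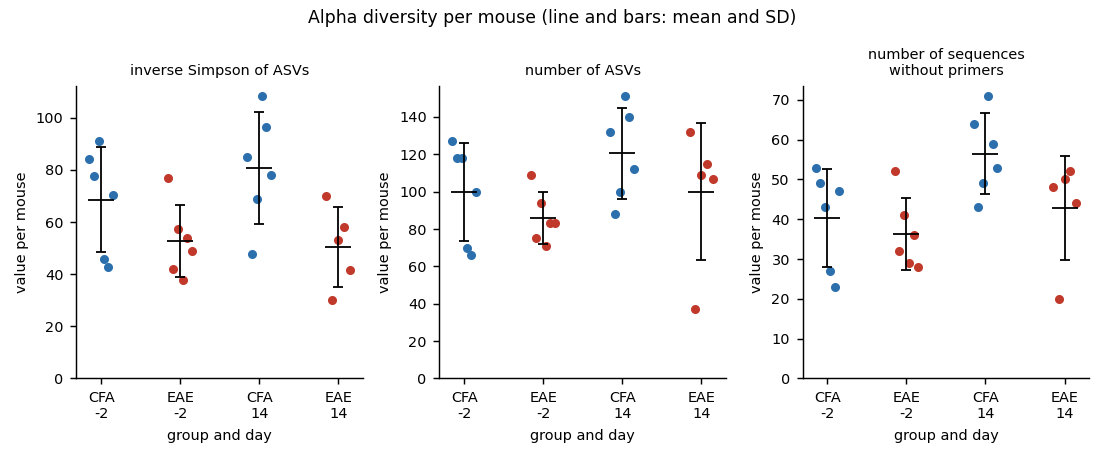
Inverse Simpson, number of ASVs and number of sequences without primers (y axes) in each EAE mouse (red) and CFA mouse (blue) at -2 and 14 dpi, with black lines at the group means and error bars of 1 SD. The groups overlap in every panel, and EAE mouse 589 is the lowest point at 14 dpi, with 37 ASVs and 20 sequences.

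Single sequences were compared with primer variants merged. In edgeR 18 of 203 sequences differed at 14 dpi (8.87%), 13 higher and 5 lower in EAE mice, against 1 at -2 dpi (0.493%), Akkermansia muciniphila, and 16 in the change (7.88%). By permutation 0 of 196 passed at 14 dpi (0%, with 25 at an unadjusted p under 0.05 and 18 called by edgeR). None of 159 passed at -2 dpi and none of 251 in the change. The percents of 14 of the 196 did not overlap between the groups (7.14%, adjusted p = 0.0606 each). Besides those already described, a sequence named Soleaferrea massiliensis was in all 5 EAE mice, at a mean of 0.972% ± 0.681 (SD, n = 5), and in no CFA mouse (edgeR, adjusted p = 0.0464). At -2 dpi it had counts in 1 of 6 EAE mice, at 0.0619%, and in no CFA mouse. Its genus, with each sequence given 1 name, was in 5 of 5 EAE and 5 of 6 CFA mice at 14 dpi. The genus means were 0.984% ± 0.666 (SD, n = 5) and 0.619% ± 0.460 (SD, n = 6; exact permutation test, p = 0.342). Stomatobaculum longum was in no EAE mouse and in all 6 CFA mice, at 3.35%, 2.12%, 2.99%, 1.51%, 1.28% and 4.43%. At -2 dpi it already had counts in 1 of 6 EAE and 5 of 6 CFA mice (exact permutation test, p = 0.0281, adjusted p = 0.639). A pair of Roseburia sequences found in no EAE mouse held means of 2.42% ± 1.91 and 2.27% ± 2.18 in the CFA mice (SD, n = 6). They had counts in 5 and 4 of the 6 CFA mice (exact permutation test, p = 0.0260 and 0.0909). At -2 dpi the first had counts in 1 of 6 EAE and 5 of 6 CFA mice, and the second in 1 of 6 and 3 of 6.

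ASVs as deposited gave more calls that trace back to few bacteria. Of 2295 ASVs, 2274 still carried both primers, whose degenerate bases split 1 bacterial sequence into many ASVs. In edgeR 60 of 648 ASVs differed at 14 dpi (9.26%), 31 higher and 29 lower in EAE mice, none with counts in both groups. At -2 dpi 0 of 648 were called (0%, where 239 had an unadjusted p under 0.05, and DESeq2 called 156), and 96 differed in the change (14.8%). The 60 were variants of 6 sequences: 21 of 28 tested variants of Lactobacillus johnsonii were lower, 16 of 28 of Turicibacter sanguinis and 8 of 23 of Akkermansia muciniphila higher, with 2 of Clostridium_sensu_stricto_1 and 1 of Roseburia. The remaining 12 were variants of 1 Prevotella sequence, 5 higher and 7 lower in EAE mice, although Prevotella itself did not differ. The share of counts carried by each of 9 classes of reverse primer differed as well at 14 dpi in 3 of 9 classes. The class with the largest difference had means of 31.0% in EAE and 18.3% in CFA mice (exact permutation test, p = 0.00866, adjusted p = 0.0390). No class differed at -2 dpi (lowest adjusted p = 0.711). What the primer classes contributed to the calls of ASVs was not tested.

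Some genus names rest on primer variants as well. For 31 sequences the authors' table gave different genus names to variants of the same sequence, and these hold 18.4% of the counts at 14 dpi. They make up all of Barnesiella, Stomatobaculum and Hungatella and 99.9% of Prevotella, and none of Lactobacillus, Akkermansia, Romboutsia, Clostridium_sensu_stricto_1, Turicibacter, Ruminiclostridium, Ruminococcaceae_UCG-014 or Lachnospira. When each sequence was given 1 name, 12 genera again passed the permutation test at 14 dpi and edgeR called 8. Stomatobaculum entered, at 0% in EAE and 2.61% ± 1.20 in CFA mice (SD, n = 5 and 6; exact permutation test, adjusted p = 0.0220), and Hungatella left (1.03% and 2.46%, adjusted p = 0.204). Barnesiella then had no counts in any of these mice, and its counts at 14 dpi fell under Prevotella.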

How the data were processed

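Fecal bacteria were measured by 16S amplicon sequencing. The authors filtered, denoised and merged the reads with DADA2, removed chimeras, curated taxon names by hand from several databases, and deposited raw counts per ASV with the primers left in. The clinical score and the weight of each mouse were recorded by the authors. Of the 89 mouse samples in the deposited counts, 88 were used, in 15 groups, and the other held no counts. The water controls of the series were not among them. Totals of the EAE and CFA samples ranged from 17326 to 102194, and floors of 3 counts cover counting error only. Counts were summed to genera and families, and taxa seen in 3 or more samples were fitted over all groups at once by quasi-likelihood in edgeR 4.0.16 (R 4.3.3, limma 3.58.1) with TMMwsp factors. The contrast at 14 dpi minus that at -2 dpi gave the change. Percents, alpha diversity and distances were compared by two-sided exact permutation over all 462 groupings of 5 and 6 mice, or 924 of 6 and 6 (Python 3.11.15, numpy 2.4.6, pandas 2.3.3, SciPy 1.17.1, matplotlib 3.10.9). All p-values were adjusted by Benjamini-Hochberg, with a threshold of 0.05. Since mice shared cages, p-values measure the spread between mice that may not be independent.

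Genera named have a mean of at least 1% in a group at 14 dpi or were called by edgeR at 14 dpi or for the change (34 genera). They are grouped by textbook roles and given with their families and up to 10 ASVs and sequences of largest difference. The members and lists were chosen with earlier results of these data known. Alternatives were DESeq2 1.42.0, no filter, total counts only, a fit of the 4 groups alone, counts outside Lactobacillaceae, genera without Lactobacillus, merged primer variants, rarefying to 17326 counts (100 draws), Aitchison distance (pseudocount 0.5), the subject as a replicate block, and each mouse left out. Chosen after seeing the data were the newer quasi-likelihood method of edgeR, calls limited to taxa in at least 4 of the 11 mice, genus names per sequence, the block for families and the permutation test per sequence. So were the tests of the change per mouse with 1 mouse left out, and the edgeR fit of genera on counts outside Lactobacillaceae. Mice pair across days through the CFA labels and, for EAE mice, the subject numbers of the sample table, which differ from the label in 17 EAE samples of the series. The deviations of a mouse at 14 dpi correlated at -0.247 to 0.162 with its own at -2 dpi, the highest correlation for 0 of 11 mice. The tests were checked on simulated data.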

Additional observations from a re-analysis of the deposited data

Results flagged for a closer look

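Of 70 tests of the highest and lowest mouse within a group at 14 dpi, 8 found a mouse far from the others. Where only 1 mouse of a group had counts of a genus, the test flagged that mouse by construction. The 8 are therefore not set against a chance rate. In EAE mouse 589, the shallowest sample, Ruminococcus held 14.5% against at most 3.80% in the other EAE mice, Lachnospiraceae_NK4A136/Hungatella held 5.08% against at most 1.64%, and 37 ASVs were found against at least 107. EAE mouse 591 was the 1 EAE mouse with Lachnospira (0.0832%) and with RF39_UBA660_CAG-877 (0.0656%), and EAE mouse 593 the 1 with Lachnospiraceae_NK4A136/COE1 (1.31%). Among CFA mice, mouse 543 alone had Clostridium_sensu_stricto_1 (0.0364%) and mouse 545 alone had Ruminiclostridium (0.240%).

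The difference between EAE and CFA mice was itself different on the 2 days in 6 genera, by the test of the change in edgeR. The log2 difference at 14 dpi minus that at -2 dpi was 17.41 for Romboutsia, 16.69 for Ruminiclostridium, 10.52 for Clostridium_sensu_stricto_1, 11.10 for RF39_UBA660_CAG-877, -11.84 for Ruminococcaceae_UCG-013 and -10.14 for Stomatobaculum. Each rests on a group at or near 0 counts on 1 of the days, so these values give the direction and are no measure of size. That of RF39_UBA660_CAG-877 rests on 1 mouse on each day and was not called by the newer method of edgeR (adjusted p = 0.153). The call of Stomatobaculum was lost in 12 of 19 alternatives (adjusted p = 0.0544 to 0.618), among them each EAE mouse left out and the replicate block, where the log2 value was -2.86. That of Ruminococcaceae_UCG-013 was lost in 5 of 19 and that of Ruminiclostridium in 1, the block. Those of Romboutsia and Clostridium_sensu_stricto_1 were lost in none of 19.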

How the results depend on the processing

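With DESeq2, 20 genera were called at 14 dpi, 12 at -2 dpi and 16 for the change, 4 families at -2 dpi and 8 for the change, and 245 ASVs at 14 dpi and 156 at -2 dpi. The newer quasi-likelihood method called 18 genera at 14 dpi and 1 family at -2 dpi. In a fit of the 4 groups alone, 1 genus and 1 family were called at -2 dpi, and 157 ASVs at 14 dpi and 63 for the change. Without a filter 0 ASVs were called at 14 dpi and 5 for the change. With primer variants merged the ASV calls were 18, 1 and 16, and with total counts only 3 at -2 dpi. Limiting calls to taxa in at least 4 mice left 8 families and 31 ASVs at 14 dpi, and counts outside Lactobacillaceae left 5 families in the permutation test. Aitchison distance gave an excess of 2.40 at -2 dpi. With subjects as a replicate block, 4 genera (3 higher, 1 lower) and 3 families were called for the change, against 6 and 3. The 4 were Romboutsia, Clostridium_sensu_stricto_1, Turicibacter and, lower, Lactobacillus. Leaving out 1 mouse gave 3 to 8 genera and 40 to 94 ASVs for the change (3 genera without EAE mouse 591, 40 ASVs without 588), 0 to 14 genera by permutation at 14 dpi, 0 to 4 families by permutation for the change, and a difference in the change of ASV number from -17.2 to 5.83. Signs turned only for differences that no test called. Under the block the log2 change became 1.90 for Acetatifactor, 3.12 for Anaeroplasma, -0.894 for Coprococcus and 0.373 for Prevotella. Other turned values were Anaeroplasma 0.127 (4 groups alone), Dorea at 14 dpi -0.00874 and Hungatella -0.274 (total counts only), Dorea -0.00729 (outside Lactobacillaceae), and, with names per sequence, Lachnospiraceae-Clostridium XlVa 1.72, Prevotella 0.108 and Hungatella 0.117 percentage points. With 1 mouse left out the log2 change ran from -0.380 to 0.428 for Anaeroplasma, -1.20 to 0.825 for Barnesiella, -0.610 to 0.964 for Hungatella, -0.411 to 0.124 for Oscillibacter and -0.554 to 0.343 for Prevotella, and the log2 difference of Dorea at 14 dpi from -0.146 to 0.493. In percentage points it ran from -0.661 to 1.37 for Anaerostipes, -3.27 to 3.55 for Prevotella and, at 14 dpi, -0.360 to 0.351 for Dorea. The causes were not tested. The newer method was not run on ASVs. With 5 and 6 mice in shared cages, and 17326 counts in mouse 589, small differences were not detectable.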
